A study of Arabidopsis thaliana with 4 samples.

Results

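After 30 min of lying horizontally, inflorescence stems of Arabidopsis thaliana were split lengthwise into a lower and an upper flank, and transcript levels of the flanks were compared on 2 microarrays, chosen by their labelled time of 30 min from the 4 arrays of the series. The other 2 arrays made the same comparison after 10 min. The plants were of ecotype Col in every group, with no mutant, transgene or chemical treatment named. Seeds had 3 days in the cold (4 °C) and 10 days at 23 °C on Murashige and Skoog plates, and plants then grew on soil in constant white light. Plants whose primary stem measured 4 to 8 cm were turned on their side in dim light of no set direction at 23 °C. The top 5 mm was cut off, and the following 3 cm was divided by hand, so that each flank sample held every tissue of that side of the stem. Each array carried the lower and the upper flank of the same time in separate colours. On array 1 the lower flank was labelled with Cy5, and on array 2, the dye swap, with Cy3. No unstimulated stem was measured, so which flank had changed from its upright state cannot be told apart. The submitters describe the 2 arrays as biological replicates, yet their labelling text has each cRNA carrying both dyes in separate reactions. The p-values may therefore cover technical spread alone.

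A stem on its side bends upward because the cells of its lower flank elongate more. Starch-filled plastids settle in the endodermis, PIN and ABCB carriers redirect the growth hormone auxin toward the lower side, and auxin binds TIR1 and AFB receptors, which leads to the destruction of Aux/IAA repressors and frees ARF transcription factors. Among the first genes to be transcribed are the Aux/IAA genes themselves, which form a feedback loop, the SAUR genes, whose small proteins block PP2C.D phosphatases and so keep the proton pumps of the plasma membrane active, and GH3 genes, whose enzymes conjugate auxin. Acid in the wall then allows loosening by expansins and xyloglucan enzymes.

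Differences are given as a log2 ratio, the lower flank divided by the upper, and a value above 0 stands for more transcript in the lower flank. A signal is a spot's brightness after normalization and holds an added constant of 50, which narrows the ratio of dim genes. Of 18183 genes with a value at 30 min, 17799 had values on both arrays. Their median difference was -0.00064, with a 5th percentile of -0.14 and a 95th percentile of 0.12. The ratios of the 2 arrays correlated at 0.44 over genes, which are not independent replicates. The threshold for a call was limma's adjusted p of 0.05 over all genes, and 96 genes passed it (0.528% of those with a value). Higher in the lower flank were 60 of them (0.33%), and 36 (0.198%) were higher in the upper flank. The 2 groups of calls differed in size: the lower-flank calls had a median of 0.73 and reached 2.28, while the upper-flank calls had a median of -0.41 and reached -0.997. At least 1.5-fold on both arrays were 36 genes in favour of the lower flank (0.202% of genes with both arrays) and 3 in favour of the upper flank (0.0169%), against 1 gene as far apart by dye. The number of calls depended on the processing, on the terms of the model and on the arrays fitted together. With a term for the replicate number, which equals the dye orientation, limma called 6259 genes. Of these 3240 were higher in the lower flank and 3019 in the upper. With a smaller added constant (16) limma called 42 and 5 genes, the authors' processed signals gave 50 and 10, their series table of ratios gave 50 and 11, and median centring gave none (169 at an unadjusted p under 0.05, against 2152 in the reported fit). With the 30 min arrays fitted alone more of the calls lay in the upper flank, 385 against 228. The smallest adjusted p that limma gave there was 7.4e-284 from 2 arrays. The errors of that fit thus rest mostly on a spread pooled over genes, and its count is not on a par with that of the reported fit.

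**Figure D1:**
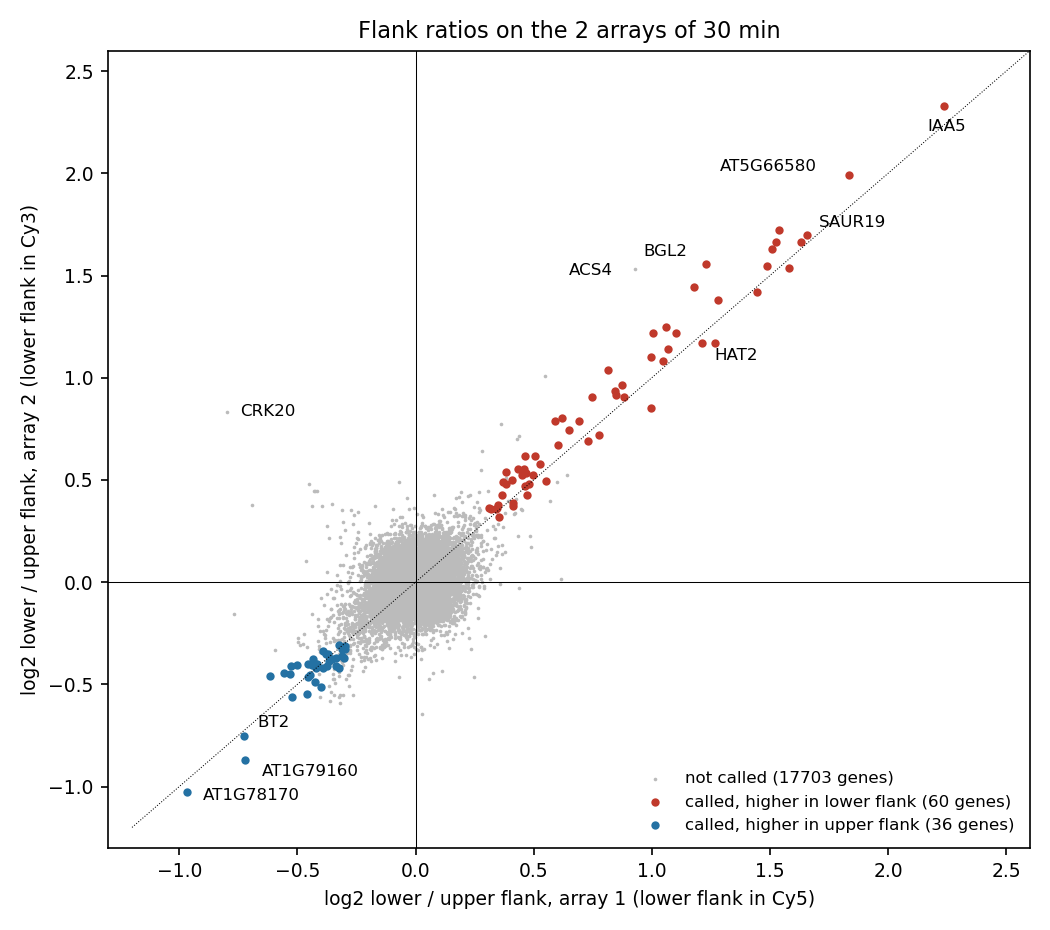
Log2 lower over upper flank on array 1 (horizontal) and array 2 (vertical), 1 point per gene with values on both, with the genes called by limma in colour. Called genes lie near the dotted line of equal values, from AT1G78170 at -0.97 and -1.03 to IAA5 at 2.24 and 2.33, and CRK20 stands apart with opposite signs.

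The test itself favours genes with near-equal ratios on the swapped arrays, because a gene's dye difference enters its error, so the closeness of a call's values and the order of its flank signals are descriptions and no further support. The 2 values of a call differed by 0.083 at the median in the lower-flank group and by at most 0.33, for BGL2. In the upper-flank group the median gap was 0.039 and the largest 0.16, for XTH24. All 60 lower-flank calls had both lower signals above both upper signals, an order that 6.76% of all genes showed. Of the 36 upper-flank calls, 30 had both upper signals above both lower ones, against 6.87% of all genes. The gene with the largest dye effect was CRK20, a receptor-like kinase gene of the cysteine-rich family, with -0.80 on array 1 and 0.83 on array 2. Its mean of 0.02 was not called (adjusted p = 1.0).

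The Aux/IAA genes held the largest difference of all. IAA5 (AT1G15580) gave a signal of 955 in the lower flank and 202 in the upper on array 1, and 775 against 154 on array 2. Both lower-flank signals were more than 3 times both upper-flank ones, and limma gave 2.28 ± 0.04 (SE, n = 2 arrays), a 4.87-fold difference (adjusted p = 4.7e-04). IAA1 (AT4G14560), another auxin-induced repressor, had 687 against 303 and 792 against 291, or 1.31 ± 0.07 (2.48-fold, adjusted p = 0.0064). IAA3 (AT1G04240) followed with 856 against 414 and 951 against 449. Its difference of 1.06 ± 0.04 was called as well (adjusted p = 0.0018).

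IAA2 (AT3G23030) reached 767 against 384 and 642 against 356, and IAA6 (AT1G52830) 693 against 376 and 569 against 304. In neither gene did the flanks overlap, and both differences were close to 0.9 (0.92 ± 0.07 and 0.89 ± 0.04). The sixth call of the family was IAA4 (AT5G43700), with 2768 against 1820 and 2923 against 1833, a difference of 0.64 ± 0.04 (adjusted p = 0.011).

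Of 29 Aux/IAA genes, 27 were on the array and 24 were measured, since IAA15 and IAA31 were not well above background on either array and IAA29 was so on 1 of 2. Called higher in the lower flank were 6, none was called higher in the upper flank, and 18 did not pass. The list median was 0.09, against -0.00064 for all genes, and without its called members it was 0.04. On both arrays 13 were above 0 and 5 below, where 25.2% of all genes lay above and 24.3% below. IAA19, which acts in stem and hypocotyl tropisms, had 0.60 and 0.49 and an adjusted p of 0.051. It lacked a value on array 1 of 10 min, so its spread was estimated from fewer arrays. IAA26 (0.23), IAA18 (0.21), IAA11 (0.16) and IAA17 (0.14) were also above 0 on both arrays without being called. At the other end IAA7 had -0.16 (-0.24 and -0.08, adjusted p = 0.45) and its close relative IAA14 had -0.14. The genes of this family thus covered the range from 2.28 to -0.16.

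SAUR genes made up 17 of the 60 lower-flank calls. The list held 78 loci, 64 of them on the array and 58 measured, with a median of 0.09. On both arrays 35 were above 0 and 11 below (25.2% and 24.3% of all genes). The median was 0.25 with the authors' processed signals and 0.06 with median centring. No SAUR gene was called higher in the upper flank, and the 41 that were not called had a median of 0.0069. Of the 17 called members 13 stood in runs of neighbours, and SAUR6, SAUR25, SAUR29 and SAUR50 did not. SAUR19 to SAUR24 stand side by side on chromosome 5 and are near-identical in sequence, so their probes may share transcripts and their values are not independent.

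SAUR19 (AT5G18010) had signals of 991 in the lower flank and 315 in the upper on array 1, and 873 against 269 on array 2. This 3.2-fold difference (1.68 ± 0.04, adjusted p = 5.7e-04) was the largest among the SAUR genes. SAUR20 (922 against 308, 1010 against 348), SAUR21 (1030 against 358, 940 against 297), SAUR22 (3051 against 1050, 2672 against 810), SAUR23 (1603 against 563, 1337 against 432) and SAUR24 (1071 against 345, 1155 against 364) showed differences of 1.56 to 1.65. SAUR25 (AT4G13790), related to them but on chromosome 4, had 321 against 132 and 289 against 111, or 1.33 ± 0.04.

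A neighbouring series of SAUR genes lies on chromosome 1. SAUR66 (AT1G29500) had 1514 against 540 and 1281 against 438 (1.52 ± 0.04, adjusted p = 5.7e-04), and SAUR63 (AT1G29440), known to promote hypocotyl and filament growth, had 927 against 340 and 996 against 372 (1.43 ± 0.05). SAUR65 (440 against 183, 353 against 157), SAUR64 (302 against 145, 350 against 147) and SAUR68 (899 against 450, 872 against 406) gave 1.22, 1.15 and 1.05. SAUR62, from the same group, had 0.36 and 0.77 and was not called (adjusted p = 0.13). SAUR15 (AT4G38850, also SAUR-AC1) and its neighbour SAUR14 had 1.11 ± 0.06 and 0.82 ± 0.05, with 258 against 129 and 225 against 97 for SAUR15. SAUR16, beside them, had 0.64 and 0.53 and was not called (adjusted p = 0.063).

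Calls outside these groups were SAUR29 (0.92, with 546 against 310 and 623 against 304), SAUR50 (0.55) and SAUR6 (0.34). SAUR1 (0.45), SAUR28 (0.42), SAUR27 (0.30), SAUR10 (0.28) and SAUR5 (0.27) were above 0 on both arrays and did not pass. The lowest member was SAUR32, a regulator of apical hook opening, with -0.14 and -0.33 (adjusted p = 0.31), followed by SAUR48 (-0.15) and SAUR71 (-0.13).

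**Figure D2:**
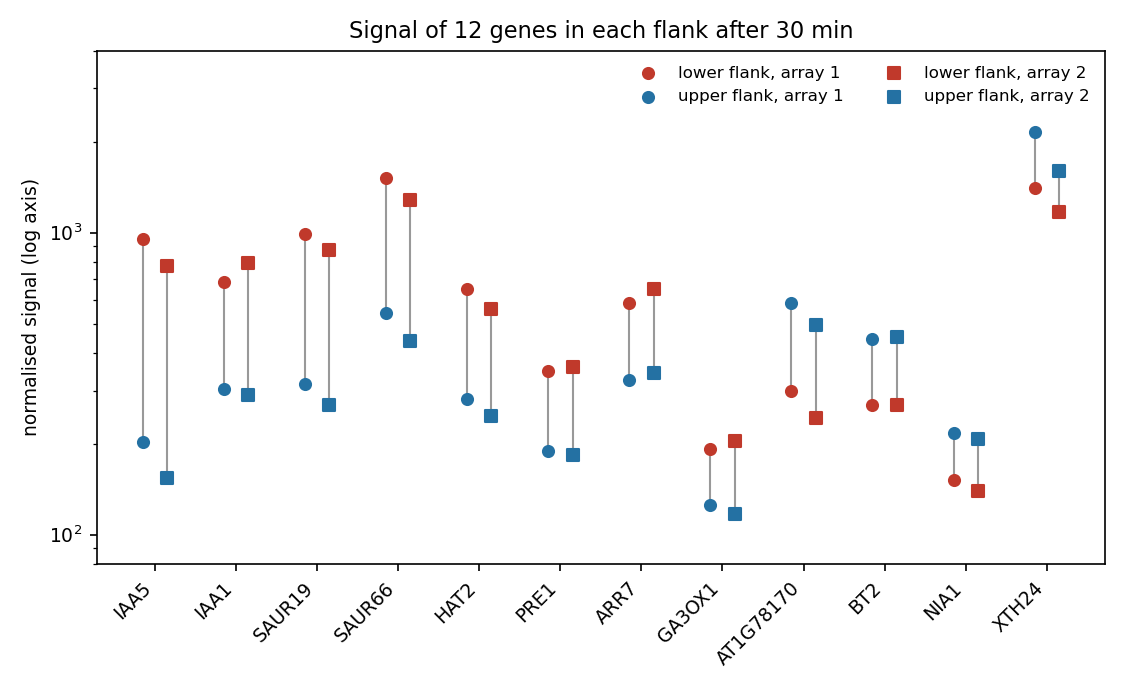
Normalised signal (log axis) of 12 genes in the lower flank (red) and the upper flank (blue), with circles for array 1 and squares for array 2, joined within each array. IAA5 spans from 154 to 955, and in each of the 12 genes the signals of the flanks do not overlap.

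The third classical group of early auxin genes gave no call, where 0.528% of all genes were called. Of 10 GH3 genes on the array 9 were measured, with a median of 0.01. GH3.12, which acts on salicylic acid precursors rather than on auxin, had the largest value (0.17, adjusted p = 0.48). The auxin-conjugating GH3.3, GH3.2, GH3.5 and GH3.6 had 0.07, 0.01, -0.02 and 0.01. GH3.2 was well above background on 1 of 2 arrays in each flank, and GH3.4 on neither.

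Class II homeodomain leucine zipper factors, several of which auxin or shade induces, gave a single call. HAT2 (AT5G47370), known as an auxin-induced regulator of stem and root growth, had 651 in the lower flank and 281 in the upper on array 1 and 557 against 247 on array 2 (1.19 ± 0.04, 2.28-fold, adjusted p = 0.0014). Its relatives HAT1 (0.42 and 0.34, adjusted p = 0.080) and HAT3 (0.28 and 0.18, adjusted p = 0.15) were above 0 on both arrays but not called. HB2, a shade-induced member also called ATHB2, had 0.01, and HAT14 was lowest with -0.01. The list of 10 measured genes had a median of 0.05, with 5 above 0 on both arrays and none below (25.2% and 24.3% of all genes).

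Upstream of these genes there was a single call, where 0.528% of all genes were called. None of 23 measured genes of auxin transport was called and their median was 0.0011. The kinase gene PID, whose product phosphorylates PIN carriers, had 0.45 and 0.36 (adjusted p = 0.13), and its relative WAG2 had 0.22. PIN3, the carrier of the endodermis that relocates on gravistimulation, had 0.05 and 0.15 (adjusted p = 0.47), while ABCB1 had the lowest value (-0.12). Among 22 measured receptors and ARF factors ARF10 was called, a factor of the repressing class under the control of a microRNA. It had 338 against 244 and 358 against 266 (0.45 ± 0.04, adjusted p = 0.021). The receptor gene TIR1 had -0.03, AFB5 was lowest (-0.06), and the activating factors ARF7 and ARF19 had -0.06 and 0.10. For the 10 measured genes of shoot gravity sensing the median was -0.04 and no gene was called. Their values ran from ARL2 (0.07), a J-domain protein gene, to VAM3 (-0.23, from array 2 alone), a vacuolar SNARE gene.

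The machinery on which SAUR proteins act gave 1 call among 19 measured genes. AT5G02760, a protein phosphatase of the PP2C.D clade, had 387 against 181 and 349 against 150 (1.16 ± 0.05, 2.23-fold, adjusted p = 0.0025). The other 8 phosphatases of that clade ranged from -0.03 to 0.17 and the proton pump genes AHA1 and AHA2 had 0.06 and 0.08, none of them called. AHA3 was the lowest (-0.13). The list median was 0.03.

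The cell wall genes pointed both ways. Of 30 measured expansins EXLA2, an expansin-like gene, was called with 536 against 423 and 548 against 428 (0.35 ± 0.04, adjusted p = 0.045). Its paralogue EXLA1 had -0.29 and -0.24 (adjusted p = 0.080), the lowest value of the list, whose median was -0.02. Among 29 measured xyloglucan endotransglucosylases XTH24 was called on the upper side. It had 1406 in the lower flank and 2156 in the upper on array 1 and 1166 against 1603 on array 2 (-0.54 ± 0.06, 1.45-fold, adjusted p = 0.045). XTH30 (-0.37), XTH18 (-0.32) and XTH6 (-0.23) were below 0 on both arrays without a call. XTH22, the touch-induced gene TCH4, lay on the other side with 0.39 on array 1 and 0.40 on array 2 and missed the threshold (adjusted p = 0.054). EXO, a brassinosteroid-induced growth gene (0.48 ± 0.03), and GAE4, an epimerase that makes a pectin precursor (0.50 ± 0.04), were called higher in the lower flank. PME61, a pectin methylesterase, was called higher in the upper flank, with 1046 against 1536 and 895 against 1216 (-0.50 ± 0.05, adjusted p = 0.040), as was AT2G43050, annotated as another pectinesterase (-0.39).

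The gibberellin and the cytokinin response lists gave 1 call each. GA3OX1, the enzyme that makes active gibberellin, had 192 against 125 and 205 against 117 (0.71 ± 0.05, adjusted p = 0.017). GA20OX1, the step before it, had 0.55 and 1.01 and was not called (adjusted p = 0.087). The other 25 measured gibberellin genes gave no call, down to GASA6 (-0.29), and the median over all 27 was -0.01. ARR7, a type-A response regulator that dampens cytokinin signalling, had 587 against 325 and 649 against 344 (0.88 ± 0.04, adjusted p = 0.0025). The remaining 9 type-A genes ranged from ARR9 (0.22) to ARR6 (-0.06). Their list had a median of 0.07 and none below 0 on both arrays (24.3% of all genes).

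ACS8 and ACS4 are auxin-induced genes for enzymes that make the precursor of ethylene. ACS8 had 84 against 65 and 87 against 62 and was called (0.43 ± 0.04, adjusted p = 0.040), being well above background in the upper flank on 1 of 2 arrays. ACS4 had 152 against 80 and 171 against 59, the largest difference among uncalled genes (1.23 ± 0.15, adjusted p = 0.058). The other ethylene genes included ETR2 (0.26) and, at the bottom, EIN3 (-0.06), and 17 measured members had a median of 0.03. No brassinosteroid gene was called among 18 (0.528% of all genes were called), and their median was 0.01. The synthesis genes BR6OX2 and CPD were highest (0.26 each) and the receptor gene BRL1 lowest (-0.17 on array 1 and -0.17 on array 2).

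Genes of abscisic acid metabolism were called on both sides. NCED5, of the enzyme family that opens abscisic acid synthesis, had 101 against 64 and 99 against 59 (0.70 ± 0.05, adjusted p = 0.014), and was well above background in the upper flank on 1 of 2 arrays. CYP707A3, which breaks abscisic acid down, had 162 against 234 and 188 against 257 (-0.49 ± 0.04, adjusted p = 0.032). NCED2, NCED3, NCED6 and NCED9 were not above background in either flank, and the 7 uncalled members of this list had a median of 0.0012.

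Growth-regulating helix-loop-helix genes gave 1 call. PRE1, whose small protein promotes elongation by binding inhibitors such as IBH1, had 347 against 189 and 359 against 184 (0.92 ± 0.05, adjusted p = 0.0057). IBH1 itself had the lowest value of the 14 measured (-0.30 and -0.14, adjusted p = 0.39), and BEE1 (0.24) and BEE3 (0.22) were above 0 on both arrays. Of the 18 names in this list 16 were matched to a locus. PRE2 and PRE4 were not, and PRE5 and PRE6 were not on the array, so the count and the median leave them out. The list median was -0.0006 and turned positive with median centring (0.03), with the processed signals (0.03) and on each array alone.

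Among the lower-flank calls 27 belonged to no list. AT5G66580, annotated on the array as an expressed protein without a name, had the second value of all, with 791 against 222 and 781 against 197 (1.91 ± 0.05, 3.77-fold, adjusted p = 5.7e-04). AUF1 (AT1G78100), an auxin-induced F-box gene, had 1107 against 527 and 949 against 430 (1.11 ± 0.04, adjusted p = 0.0014). BGL2 (AT3G57260), the pathogenesis-related glucanase also called PR2, had 235 against 100 and 270 against 92 (1.39 ± 0.08, adjusted p = 0.0078), and the glucanase gene BG3 beside it on chromosome 3 had 0.36.

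MAKR6, of a family of membrane-bound kinase regulators, gave 0.89 with signals of 195 against 109 and 176 against 92. AT1G67900, annotated as a member of the NPH3 family, had 0.74, and PKS2, a phytochrome kinase substrate, had 0.39. RGF9, a secreted peptide gene of the GOLVEN family, had 0.51, FAF2, which acts on meristem size, 0.40, and ACR7, of the ACT-domain family, 0.45. Genes known from their annotation alone included AT5G44680 (methyladenine glycosylase family, 0.75), AT5G10760 (aspartyl protease family, 0.69), AT1G68360 (zinc finger, 0.56) and AT3G61950 (helix-loop-helix family, 0.43).

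**Figure D3:**
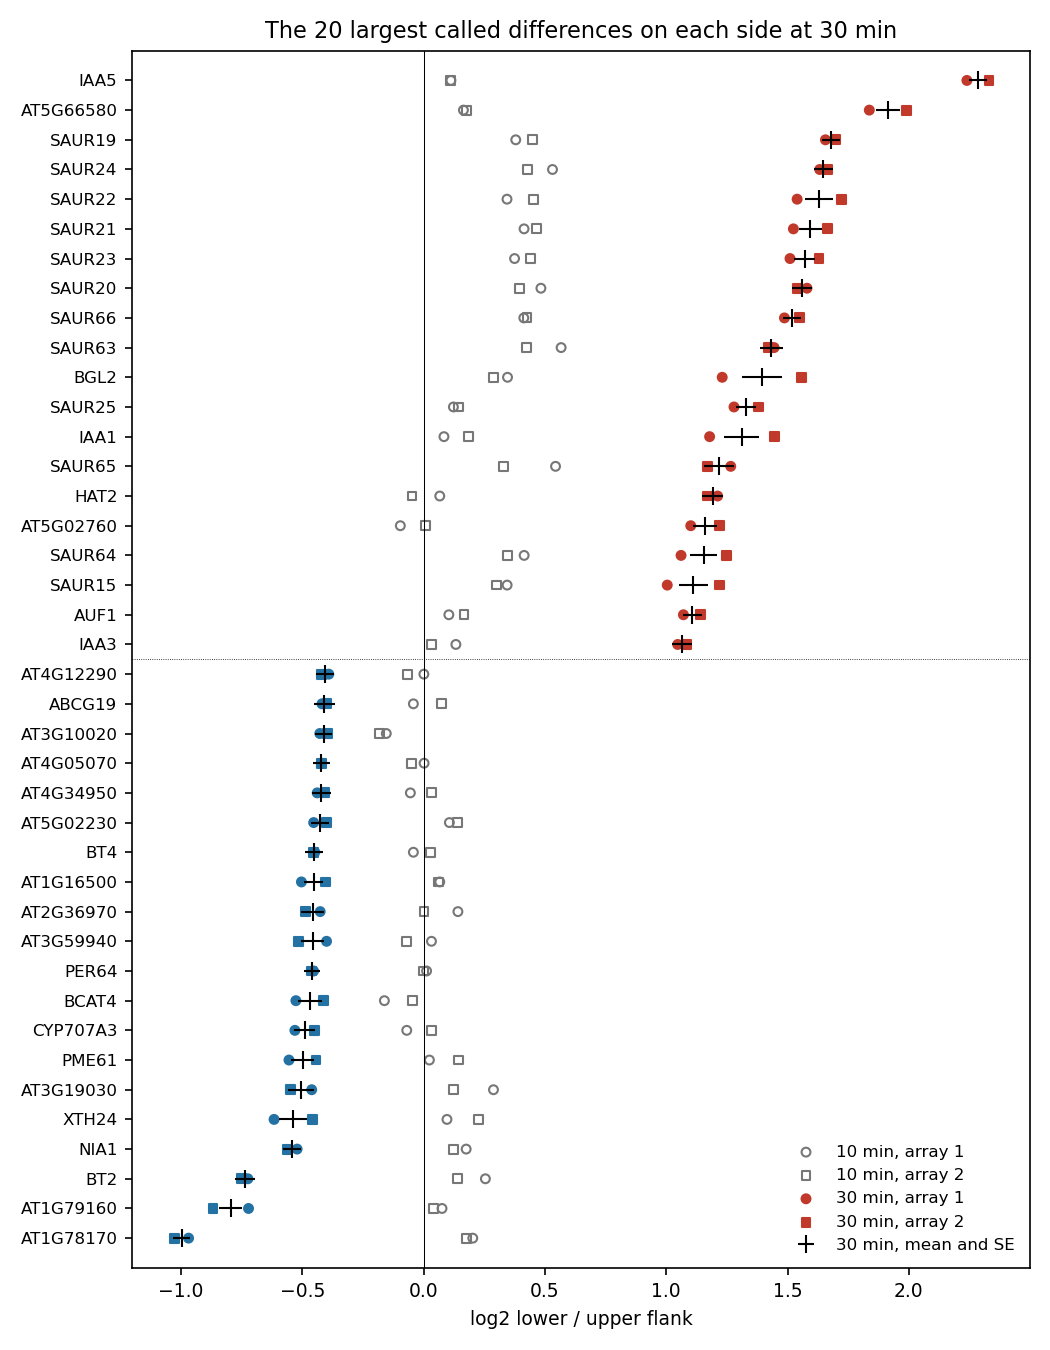
Log2 lower over upper flank of the 20 largest called differences on each side at 30 min (filled, circles for array 1 and squares for array 2, black bars for the mean and its standard error), with the values of the same genes at 10 min in open symbols. From IAA5 to IAA3 the 30 min values lie above 1.0 on both arrays, the upper-flank genes lie between -0.39 and -1.03, and the 10 min values of all 40 lie between -0.18 and 0.57.

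The largest difference in favour of the upper flank was that of AT1G78170, annotated as an expressed protein. It had 298 in the lower flank and 583 in the upper on array 1 and 243 against 496 on array 2 (-0.997 ± 0.04, adjusted p = 0.0014). AT1G79160, likewise unnamed, had 177 against 292 and 193 against 353 (-0.79 ± 0.05, adjusted p = 0.0079). With BT2, described next, these were the genes at least 1.5-fold higher in the upper flank on both arrays.

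Among the 29 lists, that of nitrate use and the BT family held the most upper-flank calls, 3 of 12 measured members. The lists were chosen with earlier results of these data known, so its calls and its median are descriptions. BT2 (AT3G48360), a BTB and TAZ domain protein that responds to nitrate and sugar and restrains nitrate uptake, had 269 against 445 and 269 against 452 (-0.74 ± 0.04, 1.67-fold, adjusted p = 0.0073). NIA1 (AT1G77760), a nitrate reductase, had 151 against 217 and 140 against 207 (-0.54 ± 0.04, adjusted p = 0.012), and BT4 (AT5G67480) had 1450 against 1979 and 1085 against 1485 (-0.45 ± 0.04, adjusted p = 0.024). The second nitrate reductase, NIA2, had -0.40 and -0.24 (adjusted p = 0.16), the nitrate transceptor gene NRT1.1 had -0.25, and the nitrite reductase gene NIR1 and BT5 had -0.14 each. Of the 12, 9 were below 0 on both arrays and none above (24.3% and 25.2% of all genes), and NRT2.1 was highest (0.05). The median was -0.14, and it stayed below 0 with median centring (-0.09), with the processed signals (-0.14) and on each array alone (-0.16 and -0.13).

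The other upper-flank calls had no common list. BCAT4, which opens methionine-derived glucosinolate synthesis, had 786 against 1132 and 621 against 825 (-0.47 ± 0.05, adjusted p = 0.045). MAM1, the next enzyme, had -0.34 and -0.48 (adjusted p = 0.057), and the 15 measured genes of that pathway had a median of -0.03, with MYB28, their regulator, highest (0.05). PER64, a peroxidase known from lignin deposition in the endodermis, had 4956 against 6787 and 3567 against 4918 (-0.46 ± 0.03, adjusted p = 0.016). LTP4, a lipid transfer protein (-0.37), DIR6, a dirigent protein of lignan synthesis (-0.31), J8, a chloroplast J-domain chaperone (-0.41), CIPK14, a kinase of calcium signalling (-0.34), and ABCG19, an ABC transporter (-0.41), were called too.

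Of the 36 upper-flank calls, 19 carried no gene symbol, AT1G78170, AT1G79160 and AT2G43050 among them. By their array annotation the others included AT3G59940 (an F-box protein with kelch repeats, -0.46), AT2G36970 (a glycosyltransferase, -0.46), AT5G02230 (a hydrolase of the haloacid dehalogenase family, -0.43), AT4G34950 (nodulin family, -0.42) and AT4G12290 (a copper amine oxidase, -0.41). AT3G19030 (-0.50), AT1G16500 (-0.45), AT4G05070 (-0.42) and AT3G10020 (-0.41) were annotated as expressed proteins of unknown or weakly supported function.

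**Figure D4:**
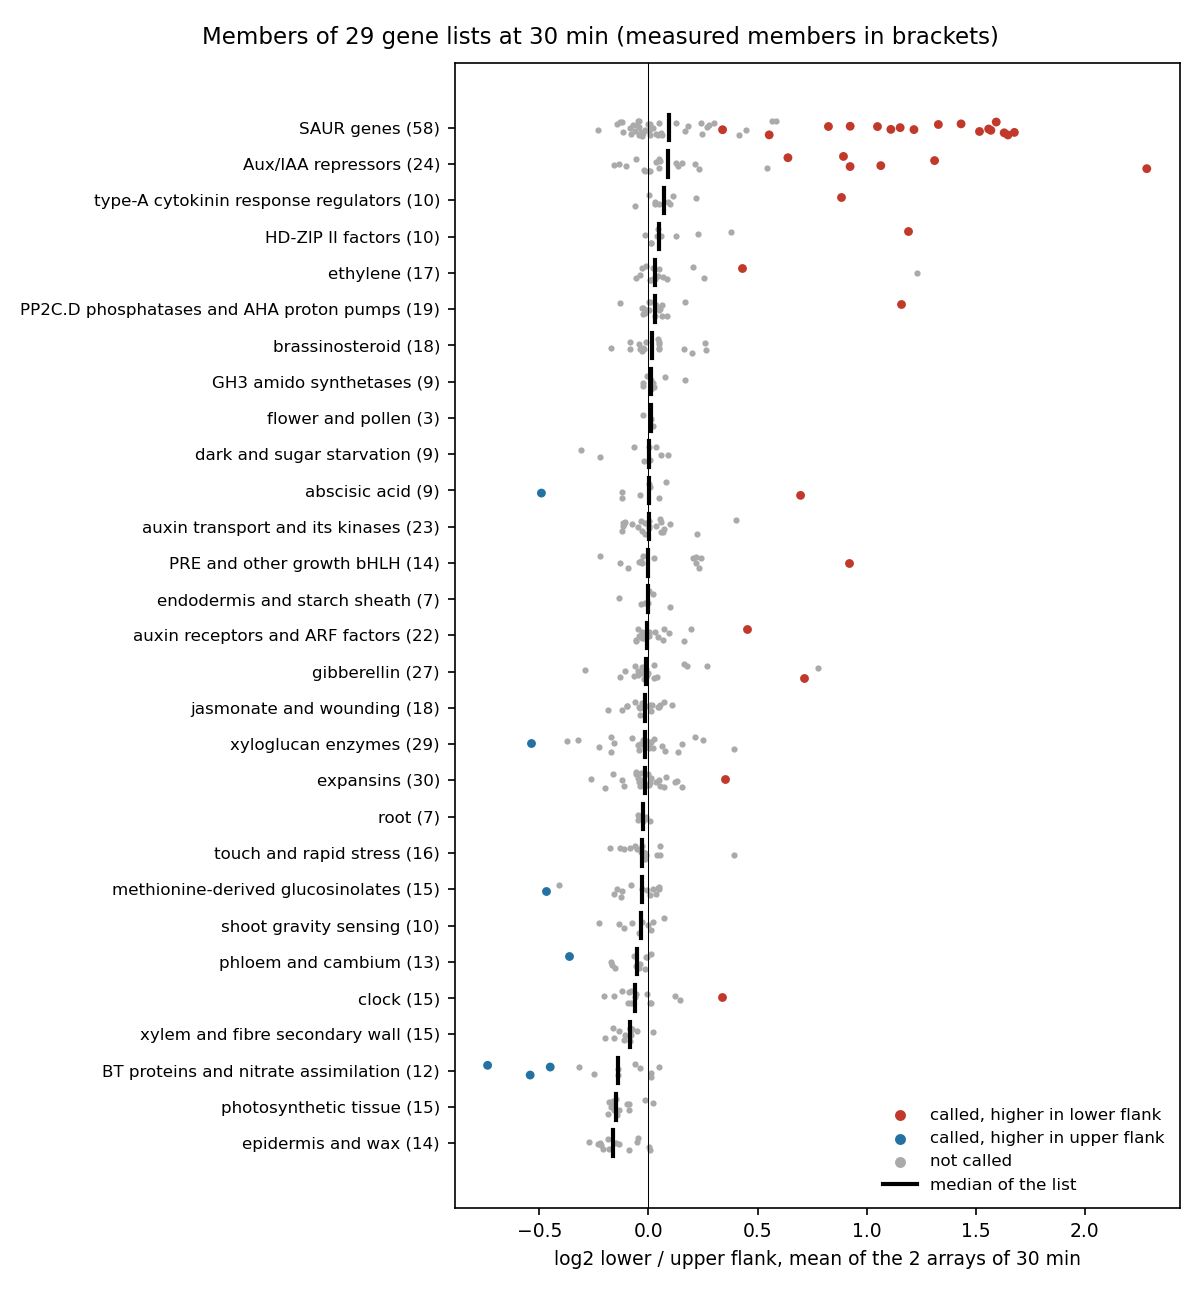
Log2 lower over upper flank at 30 min of the measured members of 29 gene lists, 1 point per gene, with called genes in colour and the list median as a black bar. SAUR and Aux/IAA lists have the highest medians (0.09 each) with long tails to the right, and epidermis and photosynthetic tissue the lowest (-0.16 and -0.15) with most members close together.

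Markers of stem tissues had medians below 0, that is on the upper-flank side. Over the lists of epidermis and wax, photosynthetic tissue, xylem and fibres, and phloem and cambium, both arrays gave values below 0 for 38 of 57 measured members and above 0 for 1 (all genes 24.3% and 25.2%), with a median of -0.11. Median centring gave photosynthetic tissue a median of -0.07 in place of -0.15, and the processed signals gave phloem and cambium -0.10 in place of -0.05. Fewer cells of a tissue and less RNA per cell cannot be told apart in such samples. The members measured on both arrays summed, for epidermis, to a signal of 16492 to 18869 in the lower and 18756 to 20987 in the upper flank. For photosynthetic tissue the sums were 334179 to 347383 and 346663 to 401206, for xylem and fibres 5085 to 5374 and 5298 to 5979, and for phloem and cambium 12135 to 14970 and 13399 to 16226. In each array and list the upper flank had the higher sum. Without RBCS1A and LHCB6, which had saturated spots, the sums of that list were 253264 against 272400 on array 1 and 213786 against 240973 on array 2.

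Within these lists PP2-A1, a phloem lectin gene, was the 1 call, with 489 against 635 and 562 against 716 (-0.36 ± 0.04, adjusted p = 0.045). CER5, a wax exporter of the epidermis, came close (-0.28 and -0.26, adjusted p = 0.068), as did CER6 (-0.22, adjusted p = 0.090). LHCB5 (-0.19) and FRA8 (-0.20), a xylan synthesis gene, were lowest in photosynthetic tissue and in xylem and fibres. Genes near 0 were the epidermal PDF1 (0.00), WIN1 (0.01), a wax regulator, LHCB4.1 (0.02, from array 2 alone), MYB83 (0.02), a switch of secondary walls, and ANT (0.01), a growth regulator of cambium and organs. RBCS1A was saturated in both flanks on both arrays, with -0.69 and 0.38, and carries no direction. The shift lies on the same side as the upper-flank calls named above, and its part in them was not tested.

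The lists of tissues the segment should lack, flower and root, gave no call. CASP1 stood both in the root list and in that of the endodermis. AG and AMS of flowers and PLT1 of roots were not above background in either flank, and the measured flower genes AP1, AP3 and SEP3 had signals of 64 to 86 with the added 50 included. Root genes were above background in 7 of 8 cases, where 87.9% to 90.7% of all gene probes were so. PHT1;1, a phosphate transporter, had 938 against 947 and 729 against 771, so a gene of this list was well detected in both flanks. The root list had a median of -0.02 and values from PHT1;1 (-0.05) to RSL4 (0.01). Markers of the endodermis, the tissue that senses gravity, summed to 3331 to 3400 in the lower and 3318 to 3385 in the upper flank. Their median was -0.0030, from PIN3 down to SGR5 (-0.14, adjusted p = 0.38), a zinc finger gene of shoot gravitropism.

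The lists of handling and stress genes held no call, where 0.528% of all genes were called, so short lists may well hold none. A response to handling that the flanks shared would not show in their ratio, so these lists cannot tell whether handling had an effect. Of 16 touch and rapid stress genes and 18 of jasmonate and wounding none passed, with medians of -0.03 and -0.02. The range ran from XTH22 to RAV1 (-0.18) in the former and from VSP1 (0.11) to JAZ9 (-0.18) in the latter. Of 9 measured genes of dark and sugar starvation none was called either. DIN6, also ASN1, was highest (0.09), and BCAT2, which degrades branched-chain amino acids, had -0.23 and -0.39 (adjusted p = 0.15).

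In the clock list LHY, a morning transcription factor, was called with 993 against 800 and 976 against 758 (0.34 ± 0.04, adjusted p = 0.045). Its partner CCA1 had 0.14 on array 1 and 0.15 on array 2 (adjusted p = 0.20), and PRR5, which represses both, was lowest (-0.21, adjusted p = 0.15). The list median of -0.06 moved to 0.0027 on array 1 alone.

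How much of this pattern was there at 10 min was read from the other 2 arrays. At 10 min limma called none of the 18234 genes with a value, and 1115 had an unadjusted p under 0.05. The fit has no dye term, so dye effects widened its errors, and the absence of calls does not show that the flanks were equal. Of the 60 lower-flank calls of 30 min, 42 were above 0 on both 10 min arrays and 8 below (22.4% and 20.6% of all genes), and of the 36 upper-flank calls 21 were above 0 and 7 below. The median of the upper-flank calls was 0.05 at 10 min and -0.41 at 30 min, and that of the lower-flank calls was 0.09 and 0.73.

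The change of the flank difference from 10 to 30 min passed its own test in 23 genes, all of them among the 96. It was toward the lower flank in 19 (0.105% of genes tested) and toward the upper flank in 4 (0.022%). This number depended on the setting. The processed signals and the series table gave 2 genes each, all toward the lower flank. Median centring gave 0, an offset of 16 gave 21, and a term for the dye orientation gave 6879. IAA5 had 0.11 on each 10 min array and gained 2.17 ± 0.05 (adjusted p = 0.0034). HAT2 (0.07 and -0.05 at 10 min), AT5G02760 (-0.10 and 0.01) and IAA6 (0.03 and -0.03) were near 0 at 10 min. SAUR19 to SAUR24, SAUR63 and SAUR66 already had 0.34 to 0.57 on every 10 min array, and their gain was 0.94 to 1.26.

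AT1G78170 went from 0.20 and 0.17 at 10 min to the upper-flank side, a change of -1.19 ± 0.05 (adjusted p = 0.012). BT2 (0.25 and 0.14 at 10 min, change -0.94), AT1G79160 (0.08 and 0.04, change -0.85) and NIA1 (0.18 and 0.12, change -0.69) moved the same way. LHY had 0.26 and 0.29 at 10 min and a change of 0.07 (adjusted p = 0.72). The 4 stem tissue lists together had a median of 0.03 at 10 min, with 22 of 57 members above 0 on both arrays and 6 below (22.4% and 20.6% of all genes).

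**Figure D5:**
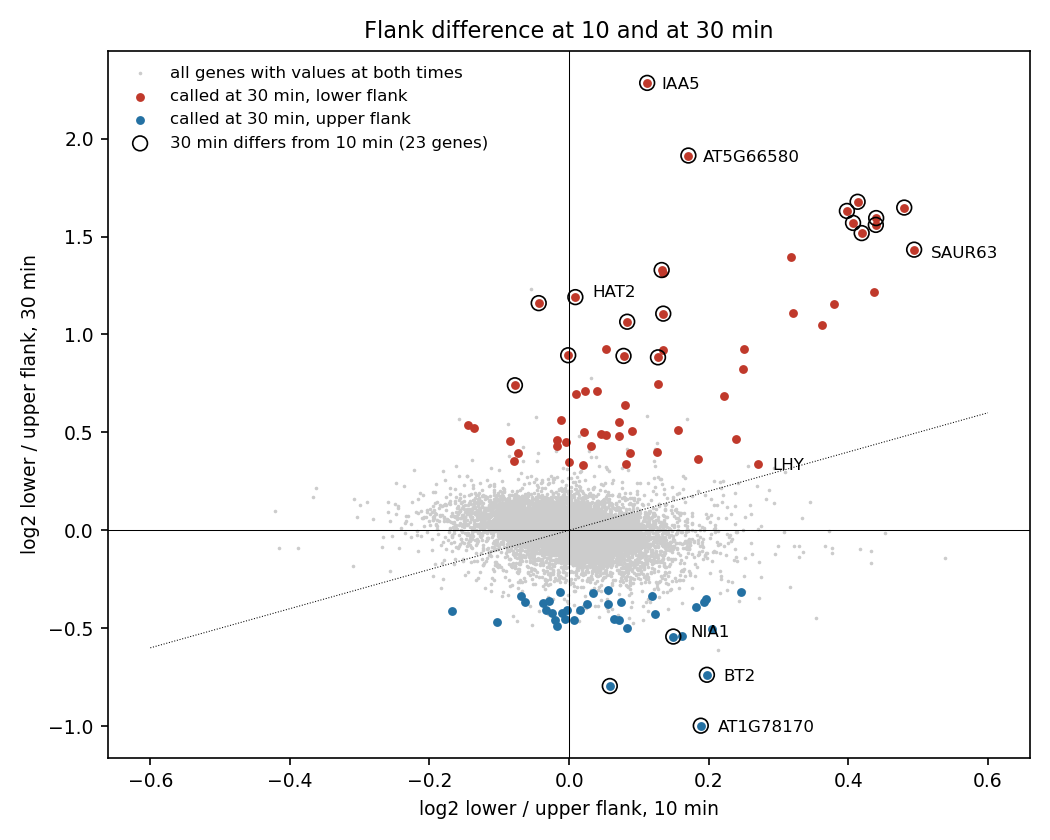
Log2 lower over upper flank at 10 min (horizontal) and 30 min (vertical, another scale), each the mean of that time's arrays, with the 30 min calls in colour, circles around the 23 genes whose difference changed between the times, and a dotted line of equal values. IAA5 lies at 0.11 and 2.28, SAUR63 at 0.49 and 1.43, and BT2 at 0.20 and -0.74.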

How the data were processed

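The 2 arrays of 30 min and, for the shared spread and the comparison of times, the 2 of 10 min were used. Per the file headers, version 8.1.1.1 of Agilent's Feature Extraction read the images. For each spot the deposited intensity columns hold its mean brightness and the median brightness around it. Deposited flags (other values) mark saturated, outlying and well measured spots. The deposited processed intensity is background-subtracted and dye-normalized per the file headers. The authors' series table holds log10 ratios of lower over upper flank. On array 1 of each time it equals the deposited log10 ratio to within 0.0028 and on the swapped arrays the log10 ratio of the processed signals to within 0.0038, which settles its scale and direction, and its 30 min columns have medians of 0 and -0.0026. The build of the array annotation was not given in the sources used here.

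In limma 3.58.1 (R 4.3.3) background was corrected with normexp (offset 50) each array's ratios were normalized by loess, and all were turned to log2 with the lower flank on top. Control spots (1075 of 22575) and outlier spots (451 and 152 gene spots on the 30 min arrays) were left out. Of 21500 gene probes 20269 named 1 locus. Symbols and neighbours came from a RefSeq gene table (assembly TAIR10.1), which held 20187 of these. A gene was its brightest probe, and 18286 genes entered the test because at least 1 flank and time had them well above background on both its arrays. Signals of each channel were scaled between arrays with Aquantile. On the 30 min arrays 87.9% to 90.7% of gene probes were well above background, and 2 arrays limit the precision.

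All 4 arrays entered the lmFit and eBayes fit, each time with its own mean, without terms for dye or replicate, and the Benjamini-Hochberg adjustment ran over all genes tested. Errors are standard errors of that fit. Because each gene's dye effect enters its spread, errors measure dye effects as well as spread between arrays, which may be technical alone. The code was tested on simulated data. P-values are those of limma. An alternative fit added a term for the replicate number, which equals the dye orientation. The other alternatives were another offset, the processed signals, the series table, median centring, other filters and priors, the mean over probes, 30 min fitted alone, and each array left out. Each array lay on its own slide, so no slide block was possible.

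The gene lists and the genes named were chosen with earlier results of these data known, and list counts and medians are descriptions. Named are the 20 largest calls on each side with equal sign on both arrays, further called list members, the top and bottom of each list, genes 1.5-fold higher in the upper flank on both arrays, the 5 largest changes from 10 to 30 min in each direction that passed, and the gene with the largest dye difference. Others were picked after their values were seen.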

Additional observations from a re-analysis of the deposited data

Results flagged for a closer look

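The flank difference at 30 min differed from that at 10 min in 23 genes by limma's test of the difference itself (adjusted p under 0.05), which is what singled them out. The change toward the lower flank was 2.17 for IAA5, 1.74 for AT5G66580, 1.26 for SAUR19, 1.23 for SAUR22, 1.20 for AT5G02760, 1.20 for SAUR25, 1.18 for HAT2, 1.17 for SAUR24, 1.16 for SAUR23, 1.15 for SAUR21, 1.12 for SAUR20, 1.1 for SAUR66, 0.98 for IAA3, 0.97 for AUF1, 0.94 for SAUR63, 0.90 for IAA6, 0.82 for AT1G67900, 0.81 for MAKR6 and 0.76 for ARR7. Toward the upper flank the change was -1.19 for AT1G78170, -0.94 for BT2, -0.85 for AT1G79160 and -0.69 for NIA1. With 2 arrays a time, no array could be examined for standing apart from its own group.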

How the results depend on the processing

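The number of calls moved with the setting. The replicate block named here is a term for the replicate number, which equals the dye orientation. All 96 calls kept their sign in each alternative run that gave them a value (94 of them had one with the strictest filter). Only the other offset, the processed signals, the series table and median centring could have changed a sign. In the remaining runs the 30 min mean of a call stayed as it was, or rested on 1 of 2 arrays that had the same sign. At 30 min limma called 6259 genes with the replicate block, 47 with an offset of 16, 60 with the deposited processed signals, 61 with the series table, 0 with median centring (169 at an unadjusted p under 0.05) and 613 with 30 min fitted alone. The change from 10 to 30 min gave 6879 calls with the replicate block, 0 with median centring (133 at an unadjusted p under 0.05), 2 with the processed signals and 2 with the series table. Both arrays put 83 genes 1.5-fold or more apart with the processed signals and 83 with the series table, in place of 39. With 1 array left out, 214 to 613 genes were called at 30 min and 237 to 430 for the change, and the causes were not tested. Without 30 min replicate 1 there were 272 calls, and without replicate 2 there were 214, the lone array being assumed to vary like those of 10 min. Without either 10 min array the fit is that of 30 min alone, so these are no separate checks. The errors of the fit of 30 min alone rest mostly on a spread pooled over genes. The replicate numbers stand for the dye orientation, and the deviations of same-numbered arrays of the 2 times correlated at 0.87 over genes. With 2 pairs this is a shared number, not a pairing of samples. Other filters, the mean over probes, and a trended robust prior left 74 to 107 calls. Over the 100 named genes and these alternatives no called value reversed, 132 of 1396 values lost their call and 81 gained it. The block added a call for 28 of the 43 named genes not called. Medians of 12 of the 29 lists changed side of 0 in at least 1 setting (GH3, growth helix-loop-helix, auxin transport, receptors and ARF, phosphatases and pumps, brassinosteroid, abscisic acid, expansins, clock, dark, endodermis, flower), and the other 17 did not. Dim genes limit the comparison: 24 passed the background test on both arrays in the lower flank but on neither in the upper, none of them called.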

Other observations

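Some called genes were neighbours on a chromosome; how often that occurs among all genes was not counted. Counting called genes with at most 3 steps between them in the RefSeq order of protein-coding genes, 17 of the 96 fell into 6 runs, 13 of them SAUR genes, and no run held calls on both sides. The runs outside the SAUR genes were GA3OX1 with IAA5 on chromosome 1 and BG3 with BGL2 on chromosome 3. Uncalled genes with a difference of at least 0.5 in size numbered 8, among them BNQ2, a helix-loop-helix gene (0.44 and 0.72), and LOG1, of a family that activates cytokinin (0.43 and 0.70), picked after their values were seen. Gene probes naming no locus or several, 934 with both arrays, held no value of 1.5-fold on both.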
